A study of Mus musculus with 25 samples.

Results

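mir-204 and mir-211 are the paired microRNA (miRNA) hairpins whose 5′ arms carry nearly the same mature miRNA, and they were followed with age in brain hemispheres. The animals were male C57BL/6 mice, an inbred strain widely used in the laboratory. Both were taken by name, as the rows mmu-mir-204 and mmu-mir-211, 2 of 1193 precursor hairpins in the count table. Both passed the filter on low counts, among 425 precursors that did. The ages were 2, 9, 15, 24 and 30 months, with 5 animals and 5 small RNA libraries at each and 25 libraries in all. No treatment or altered gene is named for any animal.

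A miRNA hairpin is cut into a short duplex, and 1 strand is loaded into an Argonaute protein, where the seed, bases 2 to 8 of the mature strand, pairs with target messenger RNAs. miR-204 and miR-211 are known from epithelia of the eye and brain. miR-204 is abundant in the choroid plexus, the epithelium that secretes cerebrospinal fluid, and in the retinal pigment epithelium and lens, while miR-211 is known from melanocytes, where its host gene is a target of the transcription factor MITF. Each lies within a gene for a TRPM cation channel, and Trpm3, the host of mir-204, is also expressed in other brain cells. In bulk tissue, fewer cells of a type and less RNA per cell cannot be told apart.

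The mature strands and hairpins are shown because the likeness of the 5′ arms sets how far the counts of the pair can be told apart. The sequences are those of RefSeq on GRCm38.p6, and both members were matched by symbol. Capitals mark the seed, bases 2 to 8, in the mature strands, and both mature arms in the hairpins.
miR-204-5p: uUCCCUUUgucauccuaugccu
miR-211-5p: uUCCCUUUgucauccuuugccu
miR-204-3p: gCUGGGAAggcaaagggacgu
miR-211-3p: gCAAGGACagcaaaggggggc
mir-204 hairpin: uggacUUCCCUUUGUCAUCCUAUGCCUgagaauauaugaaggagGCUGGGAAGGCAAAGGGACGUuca
mir-211 hairpin: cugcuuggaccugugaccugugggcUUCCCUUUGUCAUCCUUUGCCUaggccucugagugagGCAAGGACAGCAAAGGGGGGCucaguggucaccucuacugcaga

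The 5p strands were both 22 bases long and had the same base at 21 positions. Counted from 1 at the 5′ end, with the base of miR-204 first, the only substitution was A17U, outside the seed. The 3p strands differed at 7 of 21 positions and had different seeds. Of 1738 mature entries in the RefSeq table, 3 carried the seed UCCCUUU. The third was miR-7670-3p, whose hairpin had 6 reads in all libraries together, so nearly all reads of hairpins with this seed were those of mir-204. The counts are per hairpin with both arms together, so neither the arms nor reads that match both hairpins could be separated.

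In GENCODE M21 on GRCm38, mir-204 (ENSMUSG00000065507.3) spans chromosome 19 from base 22750605 to base 22750672, plus strand. It lies inside Trpm3, which runs from 22139046 to 22995410 on the same strand, within an intron of 18 of the 24 annotated Trpm3 transcripts and in an exon of 0. The shortest intron that holds it spans 16788 bases. mir-211 (ENSMUSG00000065585.1) spans chromosome 7 from base 64205806 to base 64205911, plus strand. It lies inside Trpm1, the channel gene of melanocytes and retinal bipolar cells, which runs from 64153835 to 64269775. The hairpin is within an intron of 12 of 23 annotated Trpm1 transcripts and in an exon of 0, and the shortest such intron spans 3682 bases.

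Total counts were 3.78 to 9.52 M (mega-reads) per library, with a median of 5.61 M. Column names carry the sequencing lane, and each of the 6 lanes holds libraries of several ages. Lane 3 held 5 libraries, 1 per age, and several of the main values below are given with and without them. The replicates carry different animal numbers in the titles and were treated as separate animals.

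mir-204 was among the abundant hairpins and mir-211 among the rare ones. mir-204 averaged 6616 ± 691 CPM (counts scaled so that library sizes match; SD, n = 25), which placed it 31st of 1193 precursors, and it held 0.512% to 0.775% of a library's reads. mir-211 averaged 6.84 ± 1.96 CPM (SD, n = 25) and was 336th. The mean CPM of mir-204 was thus 967-fold that of mir-211, as reads per hairpin without correction for unequal ligation of different ends. A library held between 19825 and 73819 reads of mir-204 and between 21 and 101 reads of mir-211, so counting error is small for mir-204 and large for mir-211.

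mir-204 was highest at the late ages, by a small margin. In replicate order it had 5756, 6212, 6253, 6859.6 and 6117 CPM at 2 months. It had 5055, 7817, 6979, 6055 and 6253 CPM at 9 months and 5943, 6169, 7148, 6413 and 5617 CPM at 15 months. The 9-month animals thus spread from below to above all those of 2 months. It had 7416, 7256, 6847, 7520.1 and 7006 CPM at 24 months and 6683, 6831, 6435, 6932 and 7814 CPM at 30 months. At 24 months 4 of 5 libraries exceeded the highest library of 2 months, while at 30 months 2 of 5 did. The groups of 24 and 2 months overlapped through 1 library each, and those of 30 and 2 months through 2-month replicate 4 alone, which lay above 3 of the 5 libraries of 30 months.

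The mean level of mir-204 was 6239.5 ± 398 CPM at 2 months, 6432 ± 1035 CPM at 9 months, 6258 ± 577 CPM at 15 months, 7209 ± 280.1 CPM at 24 months and 6939 ± 524 CPM at 30 months (SD, n = 5). From highest to lowest the ages were ordered 24, 30, 9, 15 and 2 months. Neighbours in this order did not differ beyond their spread in edgeR's quasi-likelihood test. Their log2 fold changes, later over earlier age, were -0.06 ± 0.08 for 30 over 24 months, 0.11 ± 0.08 for 30 over 9 months, -0.04 ± 0.08 for 15 over 9 months and 0.00 ± 0.08 for 15 over 2 months (SE, adjusted p from 0.364 to 0.998).

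mir-204 was 1.11-fold higher at 30 than at 2 months, a log2 difference of 0.15 ± 0.08 (SE) that did not pass edgeR's test (adjusted p = 0.159, n = 5 per age). In this comparison 36.9% of the 425 tested precursors passed at an adjusted p of 0.05. The widest gap lay between 24 and 2 months, 1.16-fold or 0.21 ± 0.08 on the log2 scale (SE; edgeR adjusted p = 0.0739, unadjusted p = 0.0204), where 22.6% of all precursors passed. The call for 24 over 2 months was made with lane as a covariate (0.21, adjusted p = 0.0355) and with the pair summed (0.21, adjusted p = 0.0439). It was not made under the other 8 alternatives, and it was made in 4 of the 25 refits that left out 1 library. The summed pair was nearly all mir-204, as mir-211 held at most 0.185% of its reads, and is not a separate check. Taken within the 4 lanes that held both ages, the log2 difference in mir-204, 30 minus 2 months, was 0.44 in lane 3, 0.10 in lane 5, -0.01 in lane 6 and 0.07 in lane 7. Without lane 3 the log2 fold change was 0.05 (adjusted p = 0.601 in edgeR), against 0.15 with it.

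**Figure D1:**
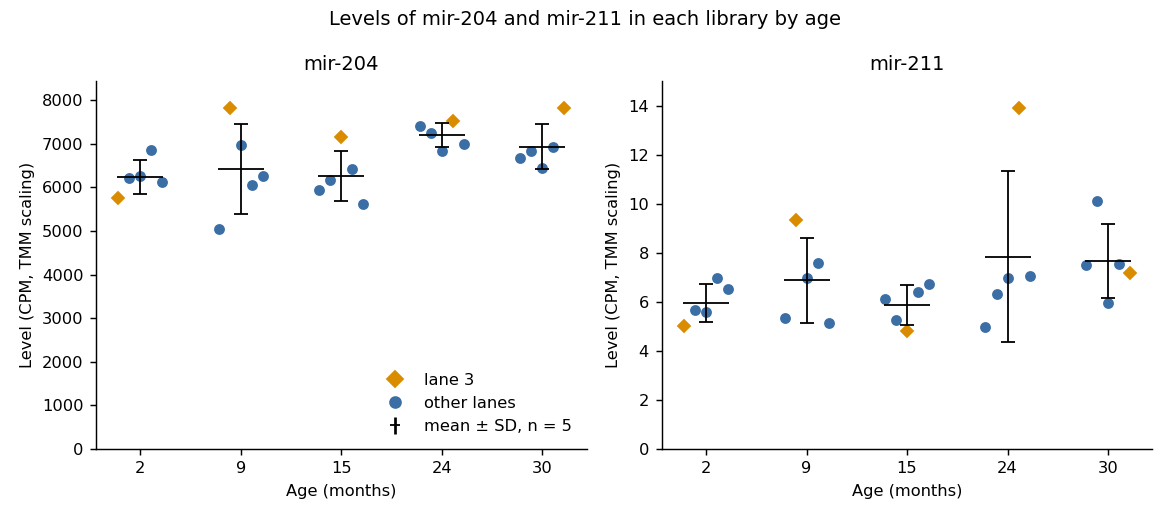
Level of mir-204 (left) and mir-211 (right) in CPM with TMM scaling, on linear axes from 0, for each of the 25 libraries by age in months. Points are libraries, with those of lane 3 as diamonds, and bars give the mean and SD of 5 libraries. The lowest mir-204 mean is 6239.5 CPM, that of 2 months, and the highest is 7209 CPM, that of 24 months; 1 library of 24 months holds 13.9 CPM of mir-211.

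A linear slope on age, which uses all 25 libraries, passed for mir-204 in edgeR's test but not firmly. The slope was 0.08 ± 0.03 log2 units per 12 months, or 5.95% per 12 months (SE, adjusted p = 0.0436), and 35.5% of all tested precursors passed this test. The call was kept with lane as a covariate (0.09, adjusted p = 0.0137) and with the reads of the pair summed (0.08, adjusted p = 0.0366). The summed row is nearly all mir-204 and so is not a separate check. The call was lost under the 3 other scalings, with both other filters, with DESeq2, with only 2-month replicates 3 to 5 and without lane 3 (0.06, adjusted p = 0.148 in edgeR). It was also lost in 21 of the 25 refits that left out 1 library, with slopes from 0.06 to 0.09 over all 25. It was kept without 2-month replicate 4, 9-month replicate 2, 15-month replicate 3 or 30-month replicate 4. The slope was above 0 in every one of these fits.

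Levels of mir-204 were also compared between lanes, with no test. Age, with 5 groups, accounted for 32.7% of the variance of log2 CPM of mir-204, and lane, with 6, for 28.6%. Neither share was corrected for its number of groups, and as many arbitrary groups would also account for some variance. The mean level was 7211 CPM in lane 3 and between 6152 and 6840.02 CPM in the other 5 lanes. The lane 3 library was the lowest of its age for mir-204 at 2 months and the highest at 9, 15, 24 and 30 months.

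**Figure D2:**
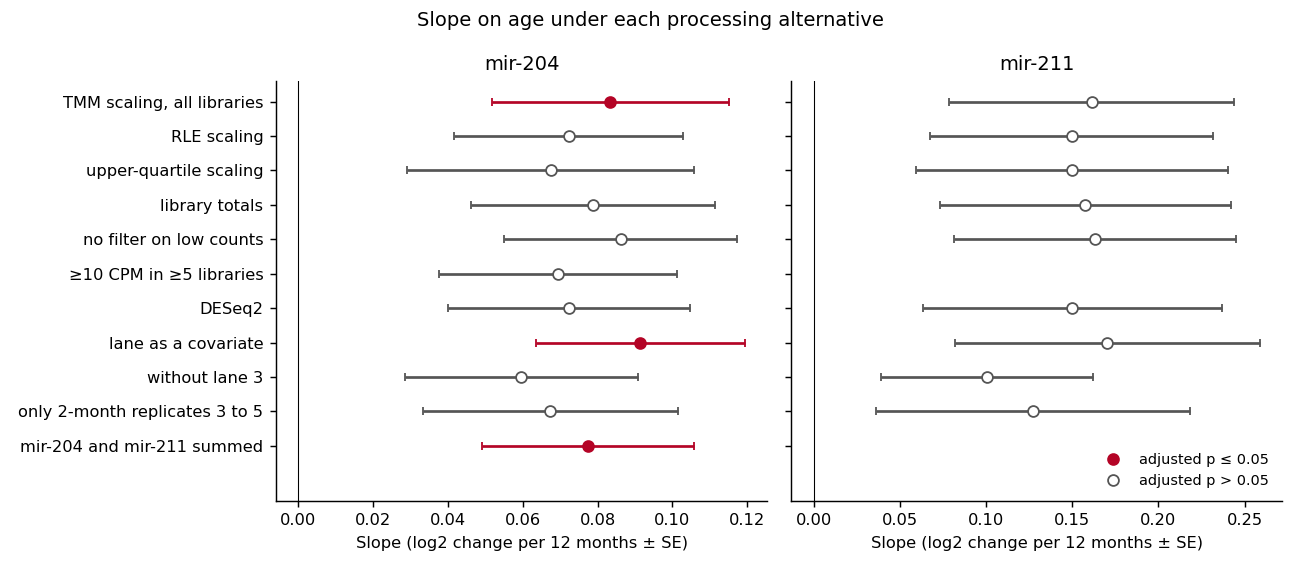
Slope on age of mir-204 (left) and mir-211 (right) in log2 change per 12 months with its SE, for each processing alternative down the page; filled red points had an adjusted p of at most 0.05. All slopes lie above 0, from 0.06 to 0.09 for mir-204 and from 0.10 to 0.17 for mir-211, and only 3 fits of mir-204 pass. The stricter filter removes mir-211, and the summed pair is drawn with mir-204.

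mir-211 had few reads and its ages overlapped. In replicate order the libraries held 27, 28, 28, 39 and 39 reads at 2 months, 21, 63, 52, 29 and 27 reads at 9 months and 24, 26, 40, 50 and 38 reads at 15 months. They held 31, 36, 44, 101 and 43 reads at 24 months and 31, 51, 32, 41 and 68 reads at 30 months. The 24-month library with 101 reads stood above all others.

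Scaled to library size, mir-211 lay at 5.00, 5.68, 5.58, 6.97 and 6.54 CPM at 2 months. It lay at 5.35, 9.34, 6.98, 7.60 and 5.13 CPM at 9 months and at 6.10, 5.25, 4.79, 6.42 and 6.73 CPM at 15 months. No 15-month library exceeded the highest of 2 months. It lay at 4.97, 6.33, 6.98, 13.9 and 7.06 CPM at 24 months and at 7.49, 10.1, 5.94, 7.57 and 7.20 CPM at 30 months. At 30 months 4 of 5 libraries exceeded the highest of 2 months, and the fifth lay among them.

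The mean of mir-211 was 5.95 ± 0.791 CPM at 2 months, 6.88 ± 1.73 CPM at 9 months, 5.86 ± 0.812 CPM at 15 months, 7.85 ± 3.49 CPM at 24 months and 7.66 ± 1.52 CPM at 30 months (SD, n = 5). The order from high to low was 24, 30, 9, 2 and 15 months. No neighbours in it differed beyond their spread, with log2 fold changes of -0.05 ± 0.21 for 30 over 24 months, 0.14 ± 0.22 for 30 over 9 months, 0.22 ± 0.22 for 9 over 2 months and -0.03 ± 0.23 for 15 over 2 months (SE, edgeR adjusted p from 0.614 to 0.958). Without 24-month replicate 4 the 24-month mean was 6.33 ± 0.968 CPM (SD, n = 4), below those of 30 and 9 months.

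mir-211 was 1.28-fold higher at 30 than at 2 months, a log2 difference of 0.36 ± 0.22 (SE) that did not pass (edgeR adjusted p = 0.222, n = 5 per age). Within lanes the log2 difference, 30 minus 2 months, was 0.49 in lane 3, 0.39 in lane 5, 0.51 in lane 6 and -0.13 in lane 7. Without lane 3 it was 0.29 (edgeR adjusted p = 0.181). The log2 fold change of 24 over 2 months was 0.41 ± 0.22 (SE, edgeR adjusted p = 0.184), and without 24-month replicate 4 it was 0.09 (edgeR adjusted p = 0.755). The slope was 0.16 ± 0.08 log2 units per 12 months (SE, edgeR adjusted p = 0.130). It was 0.10 without lane 3 (edgeR adjusted p = 0.252) and 0.10 without 24-month replicate 4 (edgeR adjusted p = 0.216).

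Neither member passed in any of the 10 pairs of ages. For mir-204 the log2 fold changes over the other pairs were 0.04 for 9 over 2, 0.16 for 24 over 9, 0.20 for 24 over 15 and 0.15 for 30 over 15 months. For mir-211 they were 0.19 for 24 over 9, 0.44 for 24 over 15 and 0.39 for 30 over 15 months. Without 24-month replicate 4 those of mir-211 were -0.13 for 24 over 9 and 0.12 for 24 over 15 months, and that of 30 over 24 months was 0.27 in place of -0.05 (edgeR adjusted p from 0.428 to 0.834). The share of all tested precursors that passed in edgeR was 7.76% for 9 over 2, 18.1% for 15 over 2, 22.6% for 30 over 9, 15.3% for 30 over 15, 8.71% for 30 over 24 and 0.235% for 24 over 15 months. It was 0% for 15 over 9 and for 24 over 9 months, where 27 and 59 precursors had an unadjusted p under 0.05 in edgeR and DESeq2 called 2 and 9. A test for any difference among the 5 ages gave an edgeR adjusted p of 0.144 for mir-204 and 0.287 for mir-211, where 32.7% of all precursors passed. Departure of the age means from the slope gave 0.627 for mir-204 and 0.644 for mir-211, where 7.06% passed.

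Within a library the ratio of the pair is free of any scaling factor. There was about 1 read of mir-211 for every 1000 reads of mir-204, with a pooled ratio of 1.03 per 1000 and a range from 0.670 to 1.85. Per 1000 reads of mir-204 the reads of mir-211 averaged 1.11 ± 0.228 at 30 months and 0.952 ± 0.0863 at 2 months (SD, n = 5). The log2 ratio, mir-211 over mir-204, was -9.82 ± 0.28 at 30 months and -10.02 ± 0.12 at 2 months (SD, n = 5). The difference was 0.20 and did not exceed the spread (two-sided exact permutation test, p = 0.175; the smallest p that 5 against 5 allows is 0.00794).

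The share of mir-211 among the reads of the pair was 0.185% in 24-month replicate 4, with an exact (Clopper-Pearson) 95% interval of 0.150% to 0.224%. The other 24 libraries lay between 0.0670% and 0.148%. Intervals cover counting error only, since without molecular identifiers PCR copies of 1 molecule cannot be recognised. With mir-211 reads set against mir-204 reads, the chi-square statistic per degree of freedom, which is near 1 for counting error alone, was 2.75 over all 25 libraries. It was 1.29 without 24-month replicate 4, the library left out for its high share. Set against library totals instead, it was 3.74 over all 25 libraries and 1.53 without that one. Because the 5p strands differ by A17U alone, a mir-204 read with that change reads as mir-211. Its part in the mir-211 counts was not tested.

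**Figure D3:**
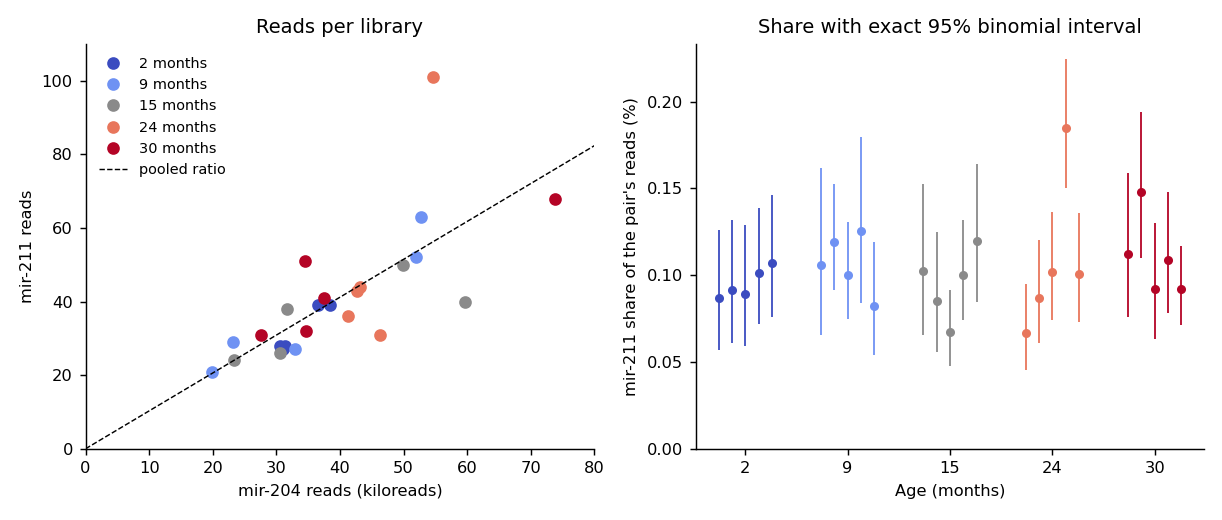
Left, mir-211 reads against mir-204 reads in kiloreads for each of the 25 libraries, coloured by age, with a dashed line at the pooled ratio of 1.03 per 1000. Right, the share of mir-211 among the reads of the pair in percent by age in months, 1 point per library with its exact 95% binomial interval; 24-month replicate 4 lies above all others at 0.185%.

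Across the 25 libraries the log2 CPM values of mir-204 and mir-211 correlated with a Pearson r of 0.45 (permutation p = 0.0231) and a Spearman rho of 0.36 (permutation p = 0.0773), the 1 relation tested. Without the 2 libraries farthest from the median of mir-204, r was 0.46 (permutation p = 0.0237). It was 0.29 without lane 3 (permutation p = 0.213) and 0.38 without 24-month replicate 4 (permutation p = 0.0637), and 0.55 with upper-quartile scaling (permutation p = 0.00398). With RLE scaling r was 0.42 (permutation p = 0.0368) and with library totals 0.48 (permutation p = 0.0140). The call was lost without lane 3 and without 24-month replicate 4. After removing the age means r was 0.30 (permutation p = 0.143), and after removing age and lane it was 0.20 (permutation p = 0.345). Single lanes held 4 or 5 libraries, too few for a value of their own.

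The precursors whose log2 CPM followed mir-204 most closely over the 25 libraries were of several kinds. Among the other precursors whose mean reached 10 CPM, the highest r over the 25 libraries was that of mir-126a, the endothelial miRNA of the Egfl7 intron, at 0.65. It was followed by mir-410 of the Dlk1-Dio3 region at 0.62, mir-339 at 0.61, mir-344-2 at 0.59 and mir-16-1 at 0.59, while the median over all of them was 0.05. After removing the age means mir-126a remained at 0.73, and after removing age and lane at 0.59. In those steps mir-34b, a miRNA of ciliated cells, was at 0.43 and 0.67, the second above that of mir-126a. The other tested miRNAs of ciliated cells were lower in both. mir-34c was at 0.13 and 0.33, mir-449c at 0.09 and 0.43 and mir-449a at -0.30 and -0.24. Precursors were ranked by r before those steps only. mir-410 was at 0.58 and 0.31 in those steps and mir-339 at 0.41 and 0.25. mir-344-2 was at 0.44 and -0.06 and mir-16-1 at 0.52 and 0.27. The lowest were mir-670 at -0.66, mir-19b-2 at -0.53 and mir-374c at -0.52. Libraries share lane, depth and age, so these values are a description.

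For mir-211 the highest r among such precursors was that of mir-185 at 0.57. It was followed by mir-23b at 0.48, mir-133a-2 at 0.47, mir-1251 at 0.46 and mir-330 at 0.46, and the lowest were mir-497b and mir-497a at -0.50 each and mir-130b at -0.47. With the age means removed, and with age and lane removed, mir-185 was at 0.42 and 0.61 and mir-23b at 0.51 and 0.56. In those steps mir-133a-2 was at 0.36 and 0.53, mir-1251 at 0.44 and 0.42 and mir-330 at 0.37 and 0.32. None of the 5 closest precursors was shared between mir-204 and mir-211. Lists of 5 from a far larger set of precursors would mostly share none by chance. The lack of overlap therefore does not show a difference between mir-204 and mir-211. mir-16-1, mir-19b-2, mir-133a-2, mir-344-2 and mir-497b, among others, have copies or partners of near-identical sequence, so their own counts are uncertain.

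Choroid plexus epithelial cells are multiciliated, and the miRNAs of multiciliated cells, mir-34b, mir-34c, mir-449a, mir-449b and mir-449c, were set beside the pair. They act in the formation of motile cilia. The ependyma also holds ciliated cells, so these miRNAs are not particular to the choroid plexus, and the source of their reads was not tested. mir-449b had 2 reads in all libraries together and was not tested. Between 2 and 30 months 36.9% of all 425 precursors passed in edgeR, 81 of them up and 76 down. Of the 4 tested miRNAs of multiciliated cells, 3 rose in edgeR. Their median log2 fold change was 0.44, and that of all 425 was 0.05. With upper-quartile scaling mir-449a passed (0.65 on the log2 scale, edgeR adjusted p = 0.00234), while mir-34c (0.21, adjusted p = 0.0750) and mir-449c (0.54, adjusted p = 0.0508) missed the threshold. mir-449a was also the 1 whose call held in all 25 refits that left out 1 library. The call of mir-34c was lost without 2-month replicate 1, 3 or 5 or 30-month replicate 1, 2 or 3 (0.20 to 0.25 on the log2 scale). That of mir-449c was lost without 2-month replicate 1, 2 or 3 or 30-month replicate 1, 2, 3 or 4 (0.38 to 0.59), and without lane 3 (0.51, edgeR adjusted p = 0.0558).

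Among them mir-34c, with a level between those of mir-204 and mir-211, averaged 2371 ± 141 CPM at 30 months and 1965 ± 239 CPM at 2 months (SD, n = 5; edgeR adjusted p = 0.0152). mir-449a averaged 18.9 ± 1.29 CPM at 30 months and 11.5 ± 2.89 CPM at 2 months (SD, n = 5; edgeR adjusted p = 0.00153). mir-449c averaged 4.37 ± 0.793 CPM at 30 months and 2.82 ± 0.953 CPM at 2 months (SD, n = 5; edgeR adjusted p = 0.0250). mir-34b averaged 169.5 ± 8.31 CPM at 30 months and 159 ± 22.1 CPM at 2 months and did not pass (edgeR adjusted p = 0.453). Whether the change of mir-204 differs from theirs was not tested.

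The summed CPM of the 4 ciliated-cell precursors lay between 2380 and 2717 at 30 months and between 1790 and 2403 at 2 months, with a slight overlap. The sum was mostly mir-34c, which averaged 2207 CPM, against 3.77 to 173 CPM for the others. Over the 25 libraries the sum correlated with mir-204 at an r of 0.47. It was at 0.15 once the age means were removed, and at 0.36 once age and lane were removed. Of the single precursors mir-34b was at 0.49, mir-34c at 0.47, mir-449c at 0.36 and mir-449a at 0.10 with mir-204. With age and lane removed mir-34b was at 0.67, mir-449c at 0.43, mir-34c at 0.33 and mir-449a at -0.24. The libraries hold no messenger RNA, so markers of the choroid plexus itself, the host transcripts and the targets of the pair were not analysed here. The share of choroid plexus in each hemisphere is therefore unknown, and its part in the levels of mir-204 and mir-211 was not tested.

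**Figure D4:**
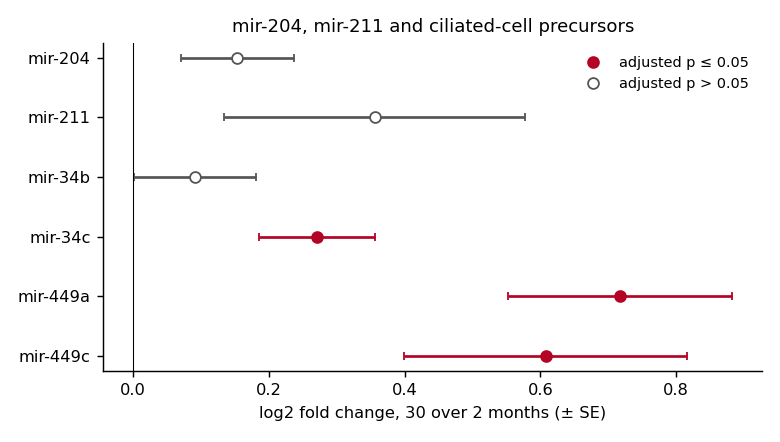
Log2 fold change, 30 over 2 months, with its SE for mir-204, mir-211 and the 4 tested ciliated-cell precursors; filled red points had an adjusted p of at most 0.05 in edgeR. mir-204 lies at 0.15 and mir-211 at 0.36, both open, while mir-34c, mir-449a and mir-449c lie at 0.27, 0.72 and 0.61 and passed with TMM scaling.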

How the data were processed

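Small RNA was sequenced from total RNA of 25 brain hemispheres with a TruSeq small RNA kit, per the labels' protocols. The authors deposited whole-number read counts per precursor hairpin. Tools listed without roles in the submitters' processing notes were SAMtools 1.3.1-9, Trimmomatic 0.36 and bcl2fastq 1.8.4. How reads were aligned and counted, on which build and strand, and how reads matching several hairpins were handled has no description in the sources used here. Ages came from the labels, replicate numbers follow deposition order, and lanes came from the column names.

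The software was edgeR 4.0.16, limma 3.58.1 and DESeq2 1.42.0 in R 4.3.3, and Python 3.11.15, SciPy 1.17.1 and matplotlib 3.10.9. filterByExpr kept 425 precursors. Levels are CPM with TMM factors of 0.952 to 1.04. edgeR's quasi-likelihood test was fitted to all libraries together, by age group or by a linear slope on age, with Benjamini-Hochberg adjustment over the 425 and a threshold of 0.05. The procedure was tested on simulated data. SE is the log2 fold change over the square root of F. Correlations and within-lane differences used log2(CPM + 0.5), with 100000 resamples for permutation p-values.

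The members, lists and tests were chosen with earlier results of these data known. The named likest precursors were the 5 highest and 3 lowest r with a mean of at least 10 CPM.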

Additional observations from a re-analysis of the deposited data

Results flagged for a closer look

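mir-211 in 24-month replicate 4, at 13.9 CPM, stood far from the other 4 libraries of its age, which lay between 4.97 and 7.06 CPM. The gap to the nearest was 0.766 of the range of the group, where Dixon's critical value for 5 samples is 0.710. The library belongs to lane 3. Its mir-204 level, 7520.1 CPM, was the highest of its age but was not flagged, with a gap to the next of 0.155 of the range. Levels of mir-204 and mir-211 and their ratio were examined at each age, 15 groups in all, and chance flags about 0.05 of such groups.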

How the results depend on the processing

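The slope of mir-204 (0.0834 log2 units per 12 months, adjusted p = 0.0436) kept its direction everywhere but lost its call with RLE scaling (0.0723), upper-quartile scaling (0.0674), library totals (0.0789), no filter (0.0862), a filter of at least 10 CPM in at least 5 libraries (0.0694), DESeq2 (0.0723), without lane 3 (0.0596) and with only 2-month replicates 3 to 5 (0.0674); the cause was not tested. Over these and the 2 alternatives that kept the call, the adjusted p ran from 0.0137 to 0.187, and over refits without 1 library the slope ran from 0.0585 to 0.0905. The test of any difference among ages passed for mir-204 only without 9-month replicate 2 (adjusted p = 0.0466); the range of its age means was 0.19 to 0.25 on the log2 scale over the 25 refits. The log2 fold change of mir-204, 30 over 2 months, ran from 0.05 to 0.18 over 11 alternatives and never passed; it was 0.07 without 30-month replicate 5. That of mir-211 ran from 0.24 to 0.37 over 9 alternatives and from 0.21 to 0.41 over the 25 refits, and never passed. Without 24-month replicate 4, a refit chosen after seeing the data, mir-211 turned to -0.13 for 24 over 9 months and to 0.27 for 30 over 24 months. The stricter filter removed mir-211 and gave no value for it, and the summed pair stands under mir-204. The correlation of the members lost its call without lane 3 (0.29) and without 24-month replicate 4 (0.38), the second chosen after seeing the data. The difference in the log2 ratio ran from 0.09 to 0.26 over 10 refits and never passed. Precursors called between 30 and 2 months numbered 119 to 172 over the alternatives, against 157. Of the ciliated-cell precursors, mir-34b ran from -0.0081 to 0.13 over the refits, with the negative value without 2-month replicate 1, and mir-449c lost its call under 6 alternatives and mir-34c under 2. The median log2 fold change of all precursors was 0.05 with TMM, 0.02 with RLE, -0.02 with upper-quartile scaling and 0.02 with library totals. mir-211 had 21 to 101 reads per library and a fitted coefficient of variation beyond counting of 0.209; the part of depth in its missed calls was not tested.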

Other observations

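Lists of miRNAs from other cell types of the hemisphere were set beside the pair by their summed CPM and their correlation with mir-204 over the 25 libraries. The 8 hairpins of the epithelial and sensory clusters (miR-200 and miR-183) summed to between 1170.4 and 8702 CPM at 30 months and between 367 and 7006 CPM at 2 months. Their sum varied far more than mir-204 did and had an r of -0.21 with it (-0.39 with age and lane removed), and 0 of the 8 passed between these ages in edgeR. mir-375, of neuroendocrine cells, lay between 137 and 166 CPM at 30 months and between 104 and 163 CPM at 2 months, with an r of 0.55 (0.40 with age and lane removed). The endothelial mir-126a lay between 6123 and 6921 CPM at 30 months and between 6091 and 6668 CPM at 2 months. Between 30 and 2 months 36.9% of all 425 precursors passed in edgeR, in either direction. Of 6 meningeal and mural precursors 2 were higher and 0 lower at 30 months in edgeR. The 2 were mir-199a-1 and mir-199b, of the same family, so they are not independent. The sum of the 6 was mostly mir-143, which averaged 23653 CPM, against 1.71 to 227 CPM for the other 5. The r of this sum with mir-204 was -0.17, turned to 0.12 with the age means removed and was 0.44 with age and lane removed.

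For the other lists, r with mir-204 was -0.36 for 5 neuronal precursors (0 higher and 2 lower at 30 than at 2 months in edgeR), 0.25 for 3 oligodendrocyte precursors (3 higher), 0.26 for 5 microglial and immune precursors (3 higher, 1 lower) and -0.26 for 4 erythroid precursors (0 passed). The 2 lower neuronal precursors were mir-128-1 and mir-128-2, copies of 1 miRNA. mir-124, mir-219a and mir-486 also stand as several hairpins, so these counts are not of independent miRNAs. The r values are of summed CPM, in which the most abundant hairpins weigh most. mir-150, the 1 lower in the immune list, averaged 763 CPM, against 7.25 to 315 CPM for the others. mir-128-1 and mir-128-2 averaged 15721 and 11005 CPM, against 2646 to 2652 CPM for the mir-124 hairpins. Of all 425 precursors 157, or 36.9%, passed between these ages in edgeR, 81 higher and 76 lower at 30 months. Beside a count of 0 it holds that 197 of all 425 precursors had an unadjusted p under 0.05 in edgeR. With the age means removed the r of the oligodendrocyte list turned to -0.35, and with age and lane removed it was -0.10. In those steps the neuronal list was at -0.14 and -0.19, the microglial and immune list at 0.22 and 0.32 and the erythroid list at -0.49 and -0.13. These values describe the same libraries, which share age, lane and depth, and the part of any cell type in the level of mir-204 was not tested.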
